A study of Rattus norvegicus with 24 samples.

Results

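Gene expression in the rostral posterior hypothalamus (rPH) was fitted as a straight line on the number of loud noise exposures a rat had received, over 20 of the 24 rats of the series. The rPH is a hypothalamic region whose neurons drive endocrine, cardiovascular and thermal reactions to threat, and repeated exposure to the same moderate stressor (homotypic stress) is known to shrink such reactions, which is called habituation. Adult male Sprague-Dawley rats were placed in sound chambers each day and heard white noise at a loud level 7 times (RS7), 3 times (RS3), 1 time (AS) or 0 times (C, background noise only). All were killed 24 h after the last session, and polyadenylated RNA of the dissected tissue block was sequenced. The noise sessions fell on consecutive days that ended on the same day in every group, so the number of exposures and the days since the first exposure cannot be told apart. Of the 6 rats per group, rats 20 (C), 18 (AS), 8 (RS3) and 1 (RS7), whose libraries the study set aside for low quality, were left out, which left 5 per group. The members described are all 16202 genes, of 32883 in the count table, that passed a filter on low counts in these 20 rats, and 7066 genes had 0 counts in all 24 rats.

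A slope uses the order and the spacing of all 4 groups at once. A gene that moves by a small step with every additional session can pass this test although no pair of neighbouring groups differs, whereas a gene that responds to the first noise and then returns to its control level is poorly described by a line, and its slope then takes the sign opposite to that response. Among the genes that a stressor is known to engage in the hypothalamus are fast messengers and their receptors, the ion channels that set how readily a neuron fires, neuropeptides, and transcription factors that hold a neuron's transmitter identity. The results are ordered in that way. Each gene's level is given in CPM (counts scaled to the library total with TMM factors), and its trend as the fitted log2 change over 7 exposures, which is 7 times the slope per exposure, with its standard error. Differential expression along the line means a Benjamini-Hochberg adjusted p of 0.05 or less in edgeR's quasi-likelihood test across the 16202 genes. Symbols were at hand only for 752 genes that the study had itself listed as regulated on these samples. Of these 752, 445 followed the line (59.2%), against 102 of the 15450 genes without a symbol (0.66%), so the counts for every named list given here are no independent evidence of its direction.

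The 20 libraries held between 8087697 and 16947298 counted reads (median 12385781), and the medians were 11298078 in C, 11858909 in AS, 12188012 in RS3 and 14189794 in RS7. The total tended to be higher with more exposures, but not past 0.05 after adjustment (Pearson r = 0.48, permutation p = 0.0308, adjusted over 3 library measures 0.0925; Spearman rho = 0.50, permutation p = 0.0294, adjusted 0.0881). With 2 of the RS7 rats left out, the group farthest from the median number of exposures, r was 0.53. When any 1 of rats 21 and 22 (C) and 4 and 5 (RS7) was omitted, the unadjusted Pearson p lay between 0.0507 and 0.0853 (permutation test). The percentage of reads taken by the 10 most abundant genes (r = -0.12, permutation p = 0.619) and the number of genes detected (r = 0.27, permutation p = 0.251) had weaker relations to it. With the log2 library total as a covariate, only 4 genes followed the line, while 497 did when every library was thinned to 8087697 counts. In C rats 21 and 22 and RS7 rat 4 the 10 most abundant genes held 20.1%, 20.3% and 18.8% of the counts, against 12.4% in the lowest library, and without these 3 rats 537 genes followed the line, 383 of them among those reported here.

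Expression of 547 of the 16202 genes (3.38%) followed the number of exposures, 352 upward (2.17%) and 195 downward (1.2%). The adjusted p went down to 0.00196, and before adjustment 3019 genes lay under 0.05, of which 1505 had a positive and 1514 a negative slope. The steepest rise was that of Kcnh5, a voltage-gated potassium channel of the ether-a-go-go family, to a fitted 2.53 times over 7 exposures, and the steepest fall that of Prlhr, the prolactin-releasing peptide receptor, to a fitted 0.219 times. These and all folds given over 7 exposures are read from the fitted line and are not ratios of group means, which were 5.17 ± 1.05 CPM in C and 10.9 ± 2.15 CPM in RS7 for Kcnh5 and 2.76 ± 1.57 and 0.706 ± 0.425 CPM for Prlhr. Prlhr rested on few reads, and its groups overlapped, with C rat 23 at 0.671 CPM and RS7 rat 5 at 1.39 CPM. Most changes were smaller than those of Kcnh5 and Prlhr. The median change over 7 exposures was 0.35 in log2 units among rising genes (range 0.15 to 1.34) and -0.45 among falling genes (range -2.19 to -0.17), and 11 rising and 19 falling genes changed more than 2-fold. Rising genes were the more abundant, with a median level of 61.2 CPM against 16.7 CPM for falling genes. In tissue blocks, fewer cells of a type and less RNA per cell cannot be told apart in any of these values.

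The 12 rising genes of lowest p included 2 potassium channels of the Kcnh family, and Kcnh7 had the lowest p of all. Kcnh7 (ERG3) carries a slow current that restrains repetitive firing. It stood at 3.08, 2.93, 4.50, 3.29 and 3.71 CPM in the 5 C rats and at 3.64, 3.83, 3.39, 2.59 and 3.44 CPM in the AS rats. In the RS3 rats it was at 3.89, 4.81, 5.12, 3.57 and 5.64 CPM and in the RS7 rats at 5.99, 6.19, 5.64, 6.18 and 8.52 CPM. Every RS7 rat lay above every C and AS rat, and the RS3 rats overlapped all of the other groups. Its change over 7 exposures was 0.96 ± 0.13 (adjusted p = 0.00196). Kcnh5 was measured at 4.63, 3.73, 6.39, 5.17 and 5.92 CPM in C and 4.87, 3.26, 3.21, 2.52 and 3.36 CPM in AS rats. It reached 5.51, 9.74, 6.65, 5.18 and 8.05 CPM in RS3 and 8.01, 13.0, 9.18, 12.0 and 12.1 CPM in RS7 rats. The AS rats were the lowest group and the RS7 rats were all above the C rats, with a change of 1.34 ± 0.21 (adjusted p = 0.00489). In the test for departure from the line described below, Kcnh5 had an unadjusted p of 0.0025 (adjusted p = 0.495).

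Foxp2, a forkhead transcription factor of neurons, was at 50.3, 43.4, 52.5, 68.3 and 50.3 CPM in C rats and 62.9, 46.3, 57.7, 49.6 and 43.1 CPM in AS rats. In RS3 rats it was at 62.7, 77.7, 76.7, 66.3 and 70.2 CPM and in RS7 rats at 72.8, 89.2, 79.8, 85.8 and 83.3 CPM. C and AS rats lay in the same range, RS3 rats overlapped only the highest of them, and RS7 rats were clear of them all. The change was 0.68 ± 0.11 (adjusted p = 0.00489). Prkcq, the theta isoform of protein kinase C, gave 28.5, 24.6, 35.2, 43.0 and 34.3 CPM in C and 40.3, 33.6, 37.8, 33.7 and 33.6 CPM in AS rats. It gave 42.7, 51.2, 50.2, 38.7 and 55.7 CPM in RS3 and 48.2, 49.8, 54.6, 57.0 and 61.7 CPM in RS7 rats. Here too the RS7 rats stood above every C and AS rat, with a change of 0.70 ± 0.12 (adjusted p = 0.00579).

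**Figure D1:**
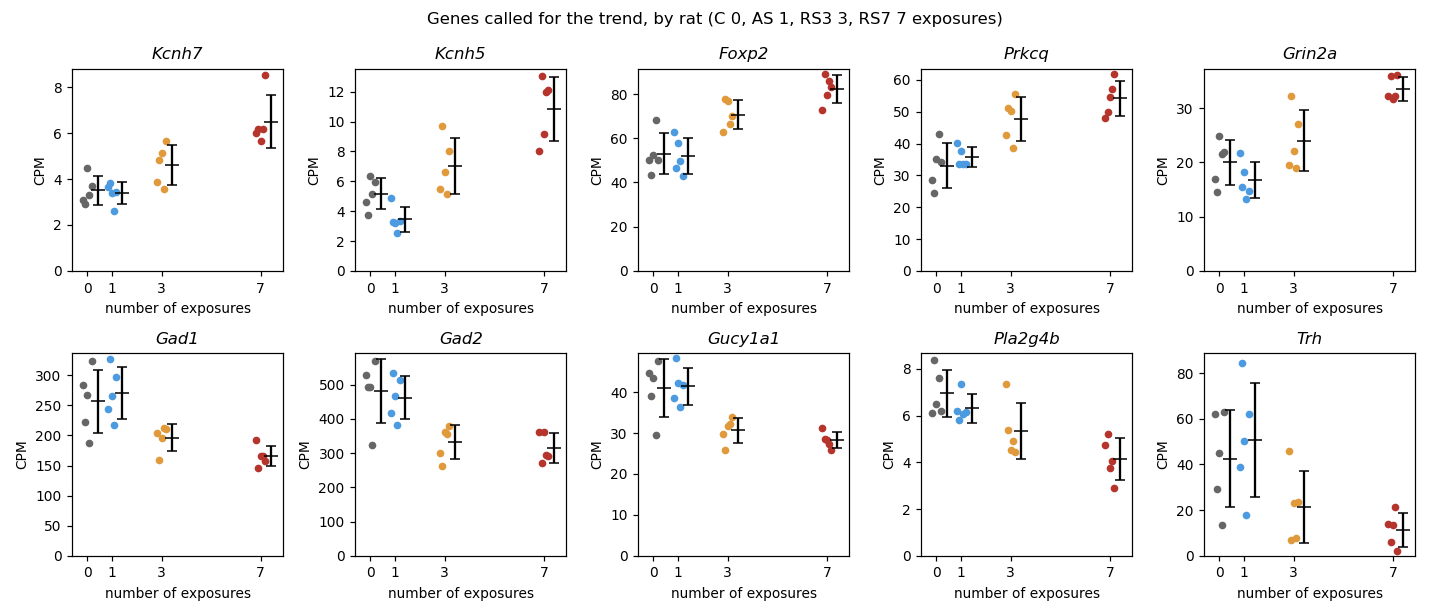
Level in CPM (linear axis from 0) against the number of exposures for 10 genes that followed the line. Each point is 1 rat (5 per group, small sideways shifts for legibility), and the bar beside each group is the mean with its SD. The 5 upper genes are highest in RS7 and the 5 lower genes lowest, and the C and AS rats lie in the same range in most panels.

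The other 8 rising genes of lowest p had various roles. Vps13c, a lipid transfer protein, rose from 69.7 ± 6.41 CPM in C (SD, n = 5) to 91.3 ± 5.40 CPM in RS7, which made a change of 0.44 ± 0.065 (adjusted p = 0.00302). Lnpep, the membrane aminopeptidase that cleaves oxytocin and vasopressin, rose 1.83-fold over 7 exposures in its entry of lowest p. Another Ensembl entry with this symbol also followed the line. Zfp871, a zinc finger protein, rose 1.95-fold and Slc8a1, the sodium-calcium exchanger NCX1, 1.37-fold. Hecw1 (a ubiquitin ligase), Megf11 (an EGF-repeat membrane protein), Prex2 (a Rac exchange factor) and Sema3d (a secreted semaphorin) rose 1.30-, 1.53-, 1.30- and 1.58-fold. Adjusted p-values of these 7 genes lay between 0.00302 and 0.00605. Lypd6, a membrane-anchored modulator of nicotinic receptors, and Cndp2, a cytosolic dipeptidase, rose as well, with changes of 0.68 ± 0.13 and 0.40 ± 0.083 (adjusted p = 0.00974 and 0.0155). Among rising genes with a symbol, the largest fitted increases after Kcnh5 were those of Fut9, a fucosyltransferase, at 2.32-fold, and Acpp at 2.31-fold. Acpp is an acid phosphatase that also dephosphorylates AMP. Next came Oprm1, the mu opioid receptor, at 2.23-fold, and Dgkh, a diacylglycerol kinase, at 2.15-fold. The 51 rising genes without a symbol were left out of this ranking.

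Among falling genes, Pla2g4b, a cytosolic phospholipase, had the lowest p, and it dropped from 6.95 ± 0.998 CPM in C through 6.30 ± 0.606 and 5.32 ± 1.20 to 4.13 ± 0.904 CPM in RS7 (change -0.74 ± 0.14, adjusted p = 0.00747). Gucy1a1, a subunit of the soluble guanylate cyclase that senses nitric oxide, was at 44.8, 39.1, 43.6, 29.5 and 47.7 CPM in C and 38.6, 48.4, 42.3, 36.4 and 41.7 CPM in AS rats. It was at 29.8, 25.9, 31.7, 32.1 and 33.8 CPM in RS3 and 31.3, 28.5, 28.4, 27.3 and 25.9 CPM in RS7 rats. The RS3 and RS7 rats were all below the AS rats and overlapped only with the lowest C rat (change -0.59 ± 0.11, adjusted p = 0.00747). C rat 23 was that lowest control for Gucy1a1, and also for Gad1, Gad2, Dlx6, Sim1 and Trh.

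The remaining falling genes of lowest p reported here were ranked among genes with a symbol. They were Gad1, Dlx6 and Sim1, which are described with their lists, and 6 genes of small to moderate change. Trnau1ap, which acts in selenocysteine incorporation, fell to 0.824 times over 7 exposures and Cotl1, an actin-binding protein, to 0.821 times. Crocc, which builds the ciliary rootlet, fell to 0.691 times and Daw1, a dynein assembly factor of cilia, to 0.551 times. Greb1, an estrogen-regulated gene, fell to 0.675 times and Ctbp2, a transcriptional corepressor, to 0.803 times. Adjusted p-values of these 6 genes lay between 0.00857 and 0.016. Among falling genes with a symbol, the steepest fitted decreases were those of Prlhr and of Trh (thyrotropin-releasing hormone) at 0.226 times. Kcnj4 (an inward-rectifier potassium channel) followed at 0.349 times, Isl1 (a LIM-homeodomain factor) at 0.370 times and Calcr (the calcitonin receptor) at 0.433 times. The standard errors of these changes ran from 0.30 (Calcr) to 0.57 (Trh), against 0.14 for Pla2g4b. Their adjusted p-values lay between 0.0297 and 0.0459. The 51 falling genes without a symbol were left out of this ranking.

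**Figure D2:**
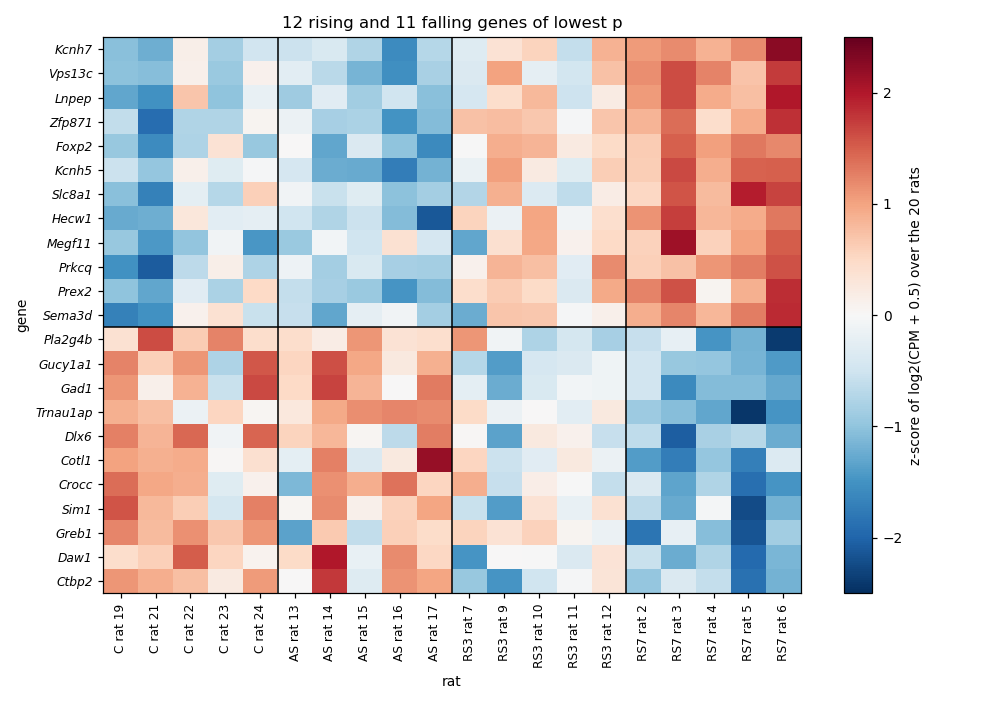
Rows are the 12 rising (top) and 11 of the 12 falling genes of lowest p among genes with a symbol. Columns are the 20 rats ordered by group, and color gives the z-score of log2(CPM + 0.5) within each gene (red above and blue below the gene's mean). The C and AS columns resemble each other, RS3 columns are mixed, and RS7 columns hold the extremes in the opposite sense.

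The form of the lines was examined next, with the caution that these genes were chosen by their slope, so the order of their group means is a description. From C to AS the median log2 step was -0.01 in both the 352 rising and the 195 falling genes. From AS to RS3 it was 0.15 and -0.17, and from RS3 to RS7 it was 0.17 and -0.20. Per exposure, these steps came to -0.01, 0.08 and 0.04 for rising genes and to -0.01, -0.08 and -0.05 for falling genes. The group means were in strict order over all 4 groups in 156 rising genes (44.3%, against 7.17% of all genes tested) and in 105 falling genes (53.8%, against 7.78%). All RS7 rats were above all C rats in 171 rising genes (48.6%, against 2.06% of all genes tested) and below them in 73 falling genes (37.4%, against 1.53%). On a scale where C is 0 and RS7 is 1, the median rising gene was at -0.03 after 1 and at 0.47 after 3 exposures, and the median falling gene at 0.04 and 0.50, where a straight line gives 0.14 and 0.43.

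**Figure D3:**
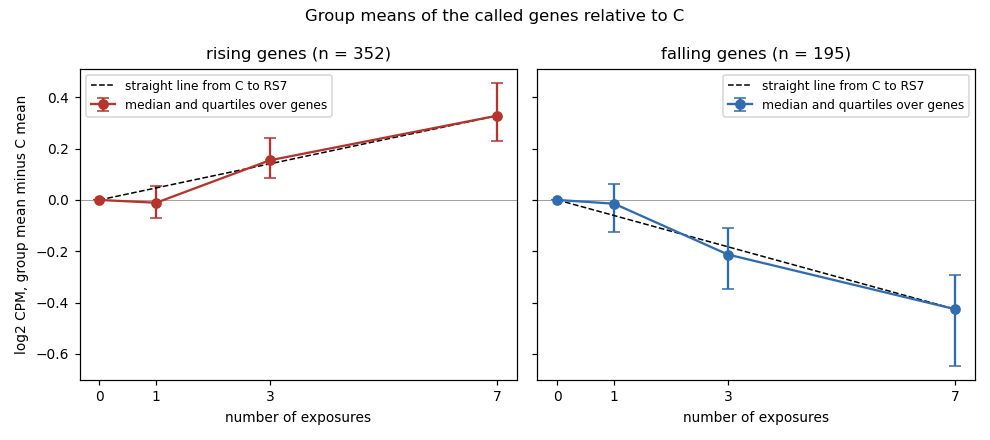
Difference of the group mean log2 CPM from the C mean (vertical axis) against the number of exposures, for the 352 rising and 195 falling genes. Points are medians over genes, bars run from the lower to the upper quartile over genes, and the dashed line joins C with RS7. After 1 exposure the medians lie at -0.01 in both panels, and after 3 exposures close to the dashed line.

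Whether group means departed from the straight line was tested with 2 more terms, and 0 of 16202 genes passed (0%), with 1452 genes at an unadjusted p under 0.05 (8.96%) and a lowest adjusted p of 0.495. DESeq2's likelihood ratio test also gave 0, with a lowest adjusted p of 0.083. Among the 547 genes on the line, 26 had an unadjusted p under 0.05 for departure (4.75%). These 547 were chosen by their fit to a line in the same rats, so nothing is read from this share beside the 8.96%. The lowest p for departure was that of Plcd4, a phospholipase C, whose level was 78.0 ± 7.82 CPM in C, 64.7 ± 3.37 in AS, 66.8 ± 6.64 in RS3 and 81.3 ± 3.14 in RS7 (unadjusted p = 7.2e-05). Then came the unnamed gene ENSRNOG00000049662, Snx11 (a sorting nexin), Btc (betacellulin, a growth factor) and the unnamed ENSRNOG00000052909. Btc was at 1.87 ± 0.145 CPM in C, 2.77 ± 0.174 in AS, 2.39 ± 0.271 in RS3 and 1.55 ± 0.327 in RS7. With RS7 left out, the slope over C, AS and RS3 gave 0 genes (2313 at an unadjusted p under 0.05, lowest adjusted p 0.243). With C left out, 392 genes followed the line over AS, RS3 and RS7.

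A test for any difference among the 4 groups, which ignores their order, found 49 genes (0.302%). The same counts tested pair by pair gave 24 of 16202 genes between C and RS7 and 270 between AS and RS7. Each of the other pairs, C with AS, C with RS3, AS with RS3 and RS3 with RS7, gave 0 genes. These tests share all their rats with the line, so their lists are not compared with it. In the 49 genes, 4 ways of spacing the groups were set against each other by the squared correlation with log2 CPM. The number of exposures fitted best in 28 genes, a step between 1 and 3 exposures in 13, the logarithm of the number of exposures in 4 and a step between 3 and 7 exposures in 4. Among all genes tested the number of exposures was the best of the 4 in 9.01%, against 57.1% of the 49. The step between 1 and 3 exposures was best in 25.5% of all genes, against 26.5% of the 49. The logarithm was best in 32.7% and the step between 3 and 7 exposures in 32.8% of all genes, against 8.16% of the 49 for each. On these spacings log2(n + 1) equals the rank of the group, and a line on it gave 392 genes, against 230 for the step between 1 and 3 exposures and 28 for the step between 3 and 7.

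GABA, the main inhibitory transmitter of the hypothalamus, is made by the glutamate decarboxylases Gad1 and Gad2 and loaded into vesicles by Slc32a1. These 3 of the 6 genes in the list of GABA synthesis and loading had an identifier, and all 3 fell. Gad1 was at 283, 223, 268, 188 and 323 CPM in C and 245, 327, 266, 217 and 297 CPM in AS rats. It was at 204, 159, 196, 212 and 211 CPM in RS3 and 192, 146, 166, 166 and 158 CPM in RS7 rats. The RS7 rats lay below the AS rats and, apart from C rat 23 with 188 CPM, below the C rats (change -0.71 ± 0.13, adjusted p = 0.00857). Gad2 was at 528, 493, 494, 323 and 571 CPM in C and 418, 535, 466, 382 and 513 CPM in AS rats. It was at 299.9, 262, 363, 357 and 378 CPM in RS3 and 363, 271, 363, 293 and 291 CPM in RS7 rats. RS3 and RS7 rats shared a range, below the AS rats and, apart from C rat 23, below the C rats (change -0.63 ± 0.14, adjusted p = 0.0232). Slc32a1 went from 93.9 ± 13.1 CPM in C to 69.9 ± 10.3 CPM in RS7 (change -0.50 ± 0.12, adjusted p = 0.0319). The median change of the 3 genes was -0.63, against -0.01 over all genes tested and 0.19 over the 752 genes with a symbol, from which every list member comes, so 0.19 is the value to set beside the medians of the other lists.

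Of 5 receptor subunits for GABA with an identifier, of 16 listed, 3 rose, among them the GABA-A receptor subunits Gabrb2 and Gabrb1, and 0 fell. That share lies near the 59.2% of all genes with a symbol that followed the line, so the count says nothing particular about these receptors. For every list that follows, the same 59.2% belongs beside the share that passed in either direction, and none of those counts was tested against it. It pools both directions, so it is no background for a rising or a falling count alone. Of the genes on the line, 352 rose, 51 of them without a symbol, and 195 fell, 51 of them without a symbol. Gabrb2 went from 93.5 ± 15.4 CPM in C to 136 ± 16.3 in RS7 (change 0.56 ± 0.11, adjusted p = 0.0155), and Gabrb1 rose 1.49-fold over 7 exposures. Gabbr2, a GABA-B receptor subunit, had a change of 0.29 ± 0.087 and did not pass (adjusted p = 0.0609). The extrasynaptic subunit Gabrd had a change of 0.60 ± 0.18 and did not pass (adjusted p = 0.068).

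Of 23 genes of glutamate receptors and calcium-dependent kinases, 6 had an identifier, of which 5 rose and 0 fell. Grin2a, a subunit of the NMDA receptor, was at 16.9, 14.6, 24.8, 21.6 and 22.0 CPM in C and 21.8, 15.4, 18.2, 13.3 and 14.8 CPM in AS rats. It was at 19.4, 32.3, 22.2, 18.9 and 27.1 CPM in RS3 and 32.2, 35.9, 31.7, 32.2 and 36.2 CPM in RS7 rats. The RS7 rats were tightly grouped and above all C and AS rats, while RS3 rat 9 reached their range (change 0.89 ± 0.15, adjusted p = 0.00618). Camk4, a nuclear calcium/calmodulin kinase that phosphorylates CREB, rose from 15.1 ± 1.94 to 21.6 ± 2.40 CPM (change 0.63 ± 0.12, adjusted p = 0.00747). The 6 genes had a median change of 0.39.

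Of 20 potassium channel genes, 15 had an identifier. Of these, 8 rose, 2 fell and 5 did not pass, with a median change of 0.36. The share that passed lies near the 59.2% of all genes with a symbol, so the count says nothing particular about these channels. Beside Kcnh7 and Kcnh5, Kcnq3 and Kcna2, which carry the M current and a low-threshold delayed-rectifier current, rose 1.63- and 1.22-fold. The 2 that fell were Kcnj4 and Kcng1, a silent subunit, to 0.349 and 0.550 times. Kcnj4 was expressed near 1 CPM in RS7 (0.902 ± 0.680 CPM) and rested on few reads. Of 18 sodium and calcium channel genes, 9 had an identifier, and 5 rose (such as Scn8a, 1.23-fold), 2 fell (among them the T-type calcium channel Cacna1i) and 2 did not pass.

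Wnt proteins are secreted signals that bind Frizzled receptors and, through beta-catenin (Ctnnb1) and the Tcf/Lef factors, alter transcription. In this list 15 of 18 genes had an identifier, and Tcf7l2 had 2, which made 16 entries. Of the 16, 10 rose, 1 fell and 5 did not pass, with a median change of 0.44. Both Tcf7l2 entries and Lef1, which rose, also belong to the dorsal thalamus list described below. The Wnt and dorsal thalamus counts and sums are therefore not separate results. Among the ligands Wnt4 rose from 27.9 ± 4.68 CPM in C to 44.5 ± 4.49 in RS7 (change 0.60 ± 0.14, adjusted p = 0.0263), and Wnt9b and Wnt2b rose 1.52- and 1.55-fold. Among the receptors, Fzd5 was at 2.08, 1.46, 1.68, 3.76 and 1.77 CPM in C and 3.13, 1.71, 2.83, 2.44 and 2.95 CPM in AS rats. It was at 4.86, 5.05, 5.67, 3.82 and 4.11 CPM in RS3 and 4.67, 4.99, 5.18, 4.48 and 5.31 CPM in RS7 rats. All RS3 and RS7 rats exceeded all C and AS rats, and RS3 and RS7 shared a range (change 1.05 ± 0.21, adjusted p = 0.0117). Its unadjusted p for departure from the line was 0.0027. Fzd3 rose 1.64-fold and Ctnnb1 1.21-fold, and Dvl2, an adaptor downstream of the receptors, fell to 0.777 times.

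Of 14 transcription factors of GABAergic and hypothalamic patterning, 11 had an identifier, and 5 fell, 3 rose and 3 did not pass (median change -0.45). The homeobox genes Dlx5 and Dlx6, which drive GABAergic differentiation, fell to 0.434 and 0.529 times, Isl1 to 0.370 times and Lhx5 to 0.628 times. Dlx6 was at 2.95 ± 0.537 CPM in C and 1.51 ± 0.289 CPM in RS7. Lhx9, a LIM-homeodomain factor of hypothalamus and thalamus, rose 1.65-fold.

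Of 16 genes in the list of neuropeptides and receptors, 12 had an identifier, of which 7 fell, 3 rose and 2 did not pass (median change -0.84). Of these 2, Htr2c is a serotonin receptor that the list also held (change 0.25 ± 0.083, adjusted p = 0.0855), so the count and median are not of neuropeptide genes alone. Penk (proenkephalin) fell from 60.2 ± 15.8 to 32.8 ± 8.74 CPM, Gal (galanin) from 13.1 ± 3.92 to 5.62 ± 3.04 CPM, and the receptors Crhr2 and Calcr to 0.474 and 0.433 times. Trh was at 62.1, 29.4, 44.9, 13.4 and 62.8 CPM in C and 39.0, 84.5, 50.3, 18.0 and 62.2 CPM in AS rats. It was at 45.7, 7.07, 23.2, 7.73 and 23.7 CPM in RS3 and 14.1, 6.19, 13.4, 21.3 and 1.95 CPM in RS7 rats. The groups overlapped, and within C and AS the values spanned more than 4-fold (change -2.15 ± 0.57, adjusted p = 0.0459). The 3 that rose were Oprm1, Nmbr (the neuromedin B receptor) and Cck (cholecystokinin), which went from 118 ± 16.3 to 164 ± 20.6 CPM. Oprm1 was at 7.94, 10.9, 16.1, 10.1 and 15.6 CPM in C and 13.7, 9.79, 10.8, 6.37 and 7.45 CPM in AS rats. It was at 12.3, 18.8, 16.3, 8.33 and 17.6 CPM in RS3 and 23.1, 26.6, 25, 22.8 and 20.0 CPM in RS7 rats. All RS7 rats were above all other rats (change 1.16 ± 0.21, adjusted p = 0.0076).

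Genes that a single stressor switches on for minutes to hours had few identifiers. Of 12 immediate-early genes 2 had one. Plk2, an activity-induced kinase, fell (change -0.30 ± 0.078, adjusted p = 0.032), and Arc, which acts at dendrites, was at 5.75 ± 1.33, 7.08 ± 1.57, 4.74 ± 0.546 and 4.27 ± 1.00 CPM in C, AS, RS3 and RS7 and did not pass (adjusted p = 0.0617). Of 10 glucocorticoid-responsive genes 3 had an identifier, of which Bhlhe40 and Klf9 rose, 1.25- and 1.18-fold, and 1 did not pass. Of 9 heat shock genes 4 had one, of which Hspa1a and Hspb8 fell, Hsph1 rose and 1 did not pass. All 4 neurofilament genes had one, and Nefl rose 1.22-fold while 3 did not pass.

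CREB and the glucocorticoid receptor act on known sequences, so the promoters of called genes with a symbol were searched for them, and those of Plk2 and Pak1 are shown because a full cAMP response element (TGACGTCA, a palindrome, in capitals) stands in them. The sequences are RefSeq promoter windows of the GRCr8 build, both on the + strand, at chr2:43702286-43702585 for Plk2 and chr1:161522200-161522499 for Pak1, a kinase of the actin cytoskeleton that rose (change 0.21 ± 0.059).
Plk2: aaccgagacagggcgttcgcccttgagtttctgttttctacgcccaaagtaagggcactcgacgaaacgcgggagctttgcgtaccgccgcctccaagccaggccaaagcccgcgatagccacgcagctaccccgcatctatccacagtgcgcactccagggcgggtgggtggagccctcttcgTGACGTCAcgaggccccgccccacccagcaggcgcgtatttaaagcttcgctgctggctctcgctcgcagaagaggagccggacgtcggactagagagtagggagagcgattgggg
Pak1: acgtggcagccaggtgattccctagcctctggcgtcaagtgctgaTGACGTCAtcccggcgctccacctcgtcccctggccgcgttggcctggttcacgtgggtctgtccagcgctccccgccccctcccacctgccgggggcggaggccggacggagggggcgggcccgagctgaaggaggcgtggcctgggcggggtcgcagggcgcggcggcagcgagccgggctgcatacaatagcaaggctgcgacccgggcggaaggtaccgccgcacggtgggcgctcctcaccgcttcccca
The element was present in 7 of 229 promoters of rising genes (3.06%) and 2 of 111 of falling genes (1.8%), against 525 of all 27457 promoters (1.91%), counted on both strands, of which the palindrome makes 1 search. The palindromic glucocorticoid response element, searched with any 3 bases between its arms, was present in 0 of either set and in 2 of all promoters. The homeodomain core TAATTA was present in 5 promoters of rising (2.18%) and 3 of falling genes (2.7%), against 1468 of all (5.35%). The promoters of Gad1, Gad2 and Slc32a1 held none of these letters. Promoters of rising genes had a median GC content of 66.7% and those of falling genes 63.0%, against 52.3% over all promoters, most of which belong to genes outside the 752 with a symbol. TAATTA holds no G or C, and the part of GC content in its lower shares was not tested.

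The region was checked with markers of neighboring tissue and of other cells. Every identifier comes from the 752 genes with a symbol, of which 59.2% followed the line, so these counts are no independent evidence about the tissue. All 9 identifiers of the dorsal thalamus list (8 of 10 genes, such as Tcf7l2, Slc17a6, Rora, Rorb, Ntng1 and Lef1) rose. Their summed level was 1136 to 1488 CPM in C, 1187 to 1623 in AS, 1236 to 1799 in RS3 and 1676 to 2088 in RS7, so that the RS7 rats were above all C rats. Slc17a6, the vesicular glutamate transporter, which hypothalamic neurons also express, went from 578 ± 65.1 to 753 ± 78.7 CPM, and Rora rose 1.98-fold. In the neurosecretory list (4 of 7 genes with an identifier) all 4 slopes were negative, but only 2 genes passed. The summed level of Sim1, Trh, Oxt and Avp was 22.4 to 287 CPM in C, 37.8 to 325 in AS, 13.1 to 145 in RS3 and 7.66 to 35.9 in RS7. Sim1, a transcription factor of the neurosecretory hypothalamus, fell from 11.7 ± 3.05 to 5.96 ± 1.78 CPM (change -1.0 ± 0.20, adjusted p = 0.0154). Oxytocin (Oxt, change -3.98 ± 1.13, adjusted p = 0.0597) and vasopressin (Avp, change -4.05 ± 1.18, adjusted p = 0.0633) had the widest spread within groups and did not pass. Avp was at 86.8, 14.0, 11.7, 1.07 and 41.2 CPM in the C rats and 4.18, 0.322, 2.88, 3.79 and 0.0781 CPM in the RS7 rats.

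With the mean log2 CPM of the dorsal thalamus identifiers as a covariate, 0 genes followed the line (692 at an unadjusted p under 0.05, lowest adjusted p 0.14), and 467 of the 547 slopes kept their sign. This covariate had r = 0.74 with the number of exposures over the 20 rats and is itself made of genes that rose, so its level and the number of exposures cannot be told apart here. Under it the slope of Gad1 was -0.08 and that of Foxp2 0.05 per exposure, against -0.10 and 0.10 without it. With the mean of the neurosecretory identifiers as a covariate, which was added after seeing the data (r = -0.60), 0 genes followed the line either (2094 at an unadjusted p under 0.05, lowest adjusted p 0.0863), and all 547 slopes kept their sign. Of the other lists, 0 of 3 astrocyte identifiers (Slc1a2, Slc1a3 and Aqp4) passed, with summed levels of 1889 to 2295 CPM in C and 1751 to 2033 in RS7. Of 3 endothelial identifiers Plvap rose, Col4a2 fell and Col4a1 did not pass. Of 4 neuronal identifiers, Gad1 and Gad2 fell, Slc17a6 rose and Snap25 did not pass. The posterior hypothalamus list was represented by Sim1 alone, and the lists of oligodendrocytes, microglia and ependyma by 0 genes, so the labelled region could be checked against few of its own markers. The part these cell types played in the trends was not tested.

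**Figure D4:**
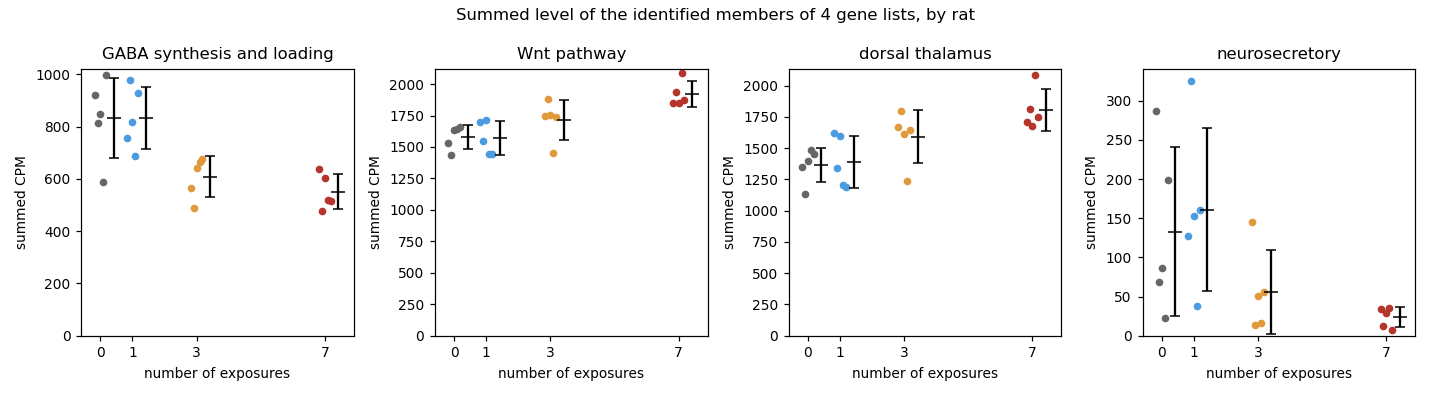
Summed CPM of the identified members of 4 lists (linear axis from 0) against the number of exposures, with 1 point per rat and the mean and SD beside each group. GABA synthesis genes are at 587 to 996 CPM in C and 478 to 639 in RS7, Wnt genes at 1440 to 1655 and 1845 to 2090, and the dorsal thalamus and neurosecretory lists move in opposite directions. The Wnt and dorsal thalamus sums share Tcf7l2 and Lef1.

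The calls rested on single rats to differing degrees. Leaving out 1 rat at a time gave between 63 genes (without RS7 rat 6) and 1013 genes (without RS7 rat 4), with 96 when RS7 rat 5 was dropped, 137 for RS7 rat 3, 219 for C rat 19, 292 for C rat 21, 332 for AS rat 17 and 346 for AS rat 14. Of the 81 entries named here that followed the line, 26 did so in every such fit, among them Kcnh7, Kcnh5, Foxp2, Prkcq, Grin2a, Camk4, Oprm1, Fzd5, Gad1, Gucy1a1 and Dlx6. Lnpep and Tcf7l2 each count with more than 1 entry among the 81. Gad2 missed the threshold without RS7 rat 3, 5 or 6, and Trh in 15 of the 20 fits. At the threshold itself, the last genes inside were Esyt3 (adjusted p = 0.0495), Icam5 (0.0497) and Cnr1, the cannabinoid receptor (0.0498), with changes of -0.92, -0.69 and -0.26. The first outside, all at an adjusted p of 0.0503, were Il1rap, Wipf3 and ENSRNOG00000037185, with changes of 0.33, 0.52 and -0.38.

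**Figure D5:**
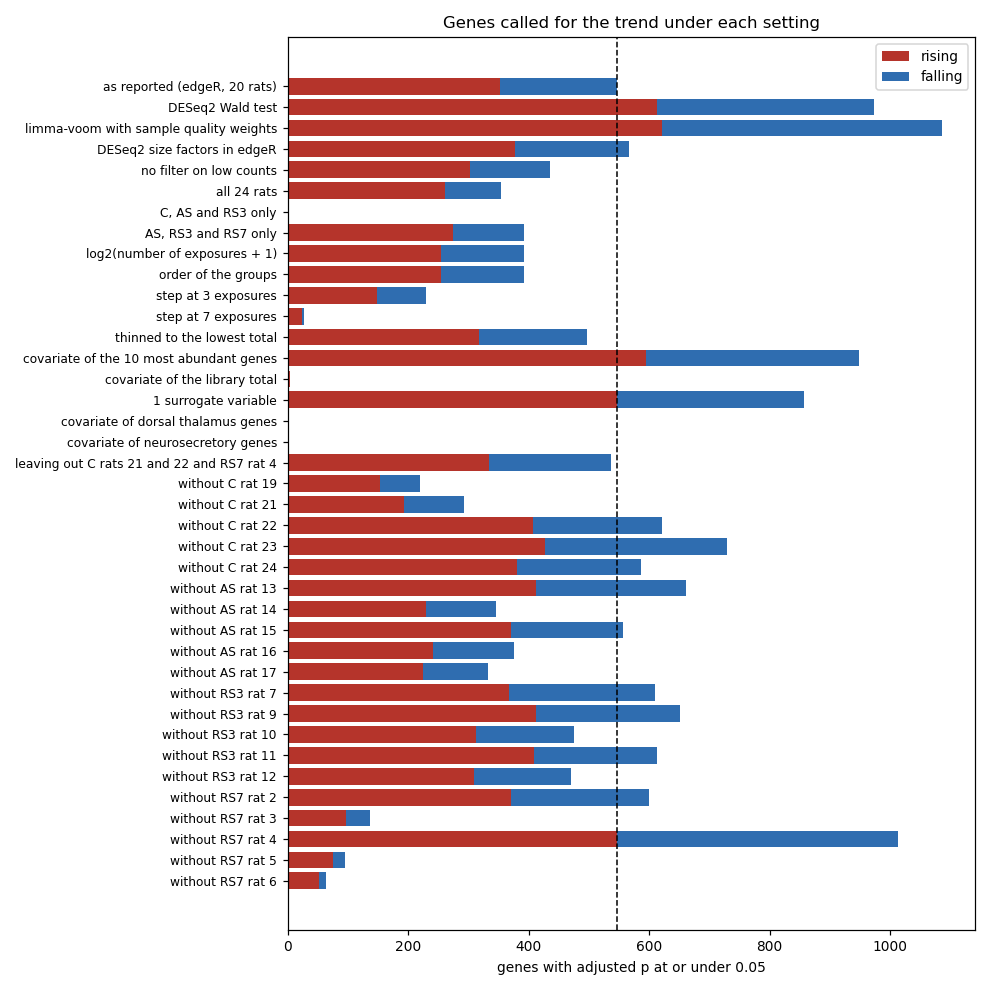
Number of genes with an adjusted p of 0.05 or less (bars from 0, rising in red and falling in blue) in the fit as reported and in each alternative, with the dashed line at 547. Fits without single RS7 rats range from 63 to 1013 genes, and 3 alternatives give 0.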

How the data were processed

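Libraries of polyadenylated RNA from 24 rats were sequenced as paired 75-base reads. Per the labels and the study's methods, the authors trimmed reads with Trimmomatic 0.36, mapped them to the rn6 rat genome with HISAT2 2.0.5 and assigned them to Ensembl genes with featureCounts, and the deposited values are unnormalized read counts per gene. Strand and pair handling are not given in the sources used here, so overlapping genes, antisense genes and near-identical copies may have exchanged reads. No row lacking a gene name was in the table.

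Counts were analysed in R 4.3.3 with edgeR 4.0.16: filterByExpr with a minimum count of 10, TMM normalization, robust quasi-likelihood test of log2 expression on the number of exposures, and Benjamini-Hochberg adjustment at 0.05. Departure from the line used 2 extra group terms, and the 4-group test 3. Log2 CPM used a prior count of 2. Alternatives used DESeq2 1.42.0, limma 3.58.1 and sva 3.50.0. The tests were tested on simulated data. Between 8087697 and 16947298 counts per rat limit genes near 1 CPM. Members of the lists had to be described through symbols of the study's own supplementary list (752 matched), since the supplied name table matched 0 identifiers.

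Named are, among genes with a symbol that followed the line, the 12 rising and 12 falling of lowest p and the 5 largest slopes each way. Also named are 17 fixed genes, examples from each list, the 5 lowest p for departure and 3 genes on each side of the threshold. Some genes that these rules name are not reported here. Pak1 was chosen after its values were seen. Tests, lists and names were chosen with earlier results of these data known. Rats are separate animals. Library relations used 100000 permutations, two-sided.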

Additional observations from a re-analysis of the deposited data

Results flagged for a closer look

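Within each group of 5 rats, the highest and the lowest value of every named gene and of 3 library measures were compared with the rest, and a rat was marked where its gap to the nearest other rat, divided by the group's range, exceeded 0.71. Of 404 such group checks 22 were marked (5.45%), and chance marks about 1 in 20. They were spread over 13 rats, with at most 4 in 1 rat.

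RS3 rat 11 was the lowest of its group for Slc17a6 (562 CPM), Slc1a2 (190.1 CPM), Wnt4 (31.6 CPM) and Zfp871 (6.97 CPM). RS3 rat 9 was the highest for Camk4 (22.3 CPM) and Bhlhe40 (86.0 CPM), and RS3 rat 7 for Avp (55.9 CPM) and Prlhr (2.70 CPM). RS7 rat 5 was the highest for Lhx9 (16.4 CPM), Ntng1 (383 CPM) and Arc (5.99 CPM), and its dorsal thalamus genes summed to the highest level of all rats, 2088 CPM. RS7 rat 6 was the highest for Kcnh7 (8.52 CPM), which followed the line without it as well. RS7 rat 4 had 18.8% of its counts in the 10 most abundant genes.

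In the AS group, rat 14 was the highest for Arc (9.87 CPM) and Kcng1 (3.75 CPM), rat 15 for Klf9 (95.8 CPM) and Pla2g4b (7.35 CPM), and rats 13 and 17 were the lowest for Aqp4 (813 CPM) and Il1rap (37.4 CPM). In the C group, rat 23 was the highest for Fzd5 (3.76 CPM), rat 24 for Btc (2.12 CPM) and rat 19 for Icam5 (13.6 CPM).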

How the results depend on the processing

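The count of 547 genes on the line became 973 by the DESeq2 Wald test, 1087 by limma-voom with sample quality weights, 354 in all 24 rats (289 shared), 0 over C, AS and RS3 only, 230 with a step at 3 exposures and 28 with a step at 7. It became 948 with a covariate of the 10 most abundant genes, 4 with the library total, 858 with 1 surrogate variable, and 0 with either the dorsal thalamus or the neurosecretory covariate. Leaving out 1 rat each gave 63 to 1013, and for any difference among the 4 groups (49) 3 to 113. The remaining counts stayed within 1.5 times. Rising genes made up 64.4% of calls, 73.7% in all 24 rats, 85.7% with the step at 7, and 82.5% without RS7 rat 6 but 53.9% without RS7 rat 4. The r of library total with exposures was 0.40 to 0.55 with 1 rat left out, and that of the 10 most abundant genes -0.32 to 0.019. The cause of these shifts was not tested.

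Slopes that turned sign were, over C, AS and RS3 only, those of Btc (0.065), Snx11 (0.069), Plcd4 (-0.062), Hspb8 (0.015) and ENSRNOG00000052909 (0.14), and, over AS, RS3 and RS7 only, those of Aqp4 (0.0098) and ENSRNOG00000049662 (0.028). ENSRNOG00000052909 also turned under log2(n + 1) or group order (0.023), under the step at 3 (0.10) and with 1 rat left out (-0.021 to 0.0013). Under the dorsal thalamus covariate Wipf3 (-0.022), Lef1 (-0.022), both Tcf7l2 entries (-0.0076 and -0.0014), Aqp4 (0.00063), Plcd4 (-0.0094), Gabrd (-0.013), Cck (-0.0073), Pak1 (-0.0067), Ntng1 (-0.018) and ENSRNOG00000052909 (0.015) turned, and under the neurosecretory covariate Oxt (0.12) and Avp (0.063). Of these genes, Hspb8, Lef1, Tcf7l2, Cck, Pak1 and Ntng1 followed the line in the fit as reported. Departure from the line gave 0 genes by DESeq2's likelihood ratio test, with DESeq2 size factors, with no filter, in all 24 rats, around the line on log2(n + 1) and with each rat left out, and was not computed under the other alternatives. No paired analysis was possible because the groups share no rat numbers.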
